A study of Mus musculus with 18 samples.

Results

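Trp53, the gene that encodes the p53 transcription factor, and 9 genes that p53 is known to activate directly (Cdkn1a, Mdm2, Ccng1, Bax, Bbc3, Trp53inp1, Sesn1, Zmat3 and Phlda3) were followed by name in 18 mouse mammary tumors. They are 10 of 57126 genes in the count table, and all 10 were detected in every tumor. The tumors arose in female F1 mice of BALB/c and C57BL6/J parents after adenovirus carrying Cre recombinase (Ad-Cre) had been injected into the mammary ducts at 10 to 12 weeks of age. Cre removed wild-type Trp53 cDNA from the endogenous locus, which left 1 missense allele over a lost allele in MaPR172H/- mice (7 tumors from 7 mice) and in MaPR245W/- mice (5 tumors from 5 mice), and no functional allele in MaP-/- mice (6 tumors from 4 mice, since JM663 and JM833 gave a pair of tumors each). The labels name JM779-T1 and JM836-T1, whereas the study's own list of tumors marks T2 of both mice as sequenced and gives T1 and T2 different histologies; the names of the labels are used here. A Rosa26LSL-TdTomato/+ reporter, which marks recombined cells, was also carried by 3 of the MaPR172H/- and 3 of the MaPR245W/- mice. Only cells reached by Ad-Cre were recombined, so the stroma and immune cells of every tumor kept wild-type Trp53, and a bulk value sums the Trp53 transcripts of all cells whether mutant or wild-type; fewer cells of a type and less RNA per cell cannot be told apart in such values.

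Libraries held 23113578 to 37365062 counts. The MaPR172H/- libraries were read on a HiSeq 4000 with 76-nt paired ends, and the other 11 on a NovaSeq 6000 with 100-nt paired ends. Per the study, all MaPR172H/- tumors were nonmetaplastic adenocarcinomas, luminal B or HER2-enriched by subtype. All tumors of the other groups were triple-negative, and most of them metaplastic. Instrument, tumor type and genotype therefore cannot be told apart in any contrast that involves MaPR172H/- tumors. Markers of other cells varied among the tumors. The summed level of 4 leukocyte markers (Ptprc, Cd53, Laptm5, Coro1a) was 175 to 339 CPM (counts per 1000000 counts of library size) in MaPR172H/-, 188 to 959 in MaPR245W/- and 352 to 974 in MaP-/- tumors, and the MaPR172H/- range did not overlap that of the MaP-/- tumors. The 4 luminal markers (Epcam, Krt8, Krt18, Cdh1), which define the labelled mammary epithelium, ranged from 128 CPM in JM779-T1 and 286 in YZ7 to 7613 in YZ11. The 5 skeletal muscle markers reached 832 CPM in JM1233 and at most 154 in any other tumor.

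In normal cells p53 is kept low by Mdm2, a ubiquitin ligase that marks it for destruction and is itself a p53 target. Stress signals release p53, which then binds a pair of 10-base half-sites in or near its targets and raises inhibitors of the cell cycle, inducers of apoptosis and modulators of metabolism. R172H and R245W correspond to human hotspot changes in the DNA-binding domain. Such mutant proteins bind the canonical sites poorly, and the comparison of missense with null tumors asks whether any of the canonical target expression differs when a mutant protein is present rather than absent.

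The reference sequence around both mutated codons is given because the alleles that define the groups lie there (GRCm39, plus strand, codons counted from 1 at the start of a coding sequence of 390 codons in ENSMUST00000108658.11). The changed codon, an arginine in each case, is in capitals. The R172H codon lies in exon 5 at chr11:69479337-69479339 and the R245W codon in exon 7 at chr11:69480036-69480038.
R172H codon: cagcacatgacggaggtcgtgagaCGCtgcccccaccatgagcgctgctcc
R245W codon: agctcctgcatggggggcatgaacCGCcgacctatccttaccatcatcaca
Both codons read CGC in the reference. The deposited counts are per gene and do not separate mutant from wild-type transcripts.

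The 10 genes were searched on both strands for the p53 consensus, a pair of half-sites with at most 1 base between them and at most 1 mismatch to the defined positions, within 3000 bases of the canonical transcript start. Such a match was found in 4 of the 10 genes, against 2.45% of 21770 protein-coding genes. A match without mismatch was found in 2 of the 10, against 0.276% of all. The sites follow, 5′ to 3′ on the strand of each gene, with positions counted from its transcript start, with the half-sites in capitals.
Cdkn1a (plus strand, chr17:29309902-29309921, at -2826 from the start, 1 mismatch): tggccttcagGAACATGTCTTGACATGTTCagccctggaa
Ccng1 (minus strand, chr11:40646289-40646308, at -161 from the start, 1 mismatch): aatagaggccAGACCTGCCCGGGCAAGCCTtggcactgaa
Ccng1 (minus strand, chr11:40645763-40645782, at 365 in intron 1, 1 mismatch): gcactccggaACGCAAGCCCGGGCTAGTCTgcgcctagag
Trp53inp1 (plus strand, chr4:11155112-11155132, at -1290 from the start, no mismatch, 1 base between the half-sites): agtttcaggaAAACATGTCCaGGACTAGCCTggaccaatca
Zmat3 (minus strand, chr3:32418480-32418499, at 1418 in intron 1, no mismatch): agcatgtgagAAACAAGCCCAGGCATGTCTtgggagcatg
A single half-site without mismatch lay between 250 bases before and 50 bases after the start in 7 of the 10 genes, against 7.89% of the 21770. Bbc3, the target whose level differed most between the groups, is one of them, with the half-site (in capitals) at -43 from the start of its canonical transcript (plus strand, chr7:16042421-16042720).
Bbc3: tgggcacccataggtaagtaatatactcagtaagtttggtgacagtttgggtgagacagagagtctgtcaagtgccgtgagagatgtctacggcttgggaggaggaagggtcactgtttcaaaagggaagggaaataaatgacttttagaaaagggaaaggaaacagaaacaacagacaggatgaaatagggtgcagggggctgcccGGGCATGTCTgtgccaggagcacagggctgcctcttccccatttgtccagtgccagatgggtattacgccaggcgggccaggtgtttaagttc
A match is a description of these letters, and binding was not measured. The targets were named because p53 is known to activate them directly, so the shares beside all genes are no test. Sites farther away or with more mismatches were not searched for.

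Trp53 transcripts were present in every tumor, the MaP-/- tumors included. Its level was 48.0, 47.1, 47.9, 42.3, 48.3, 41.9 and 11.2 CPM in the MaPR172H/- tumors YZ2, YZ3, YZ4, YZ6, YZ7, YZ10 and YZ11. The MaPR245W/- tumors JM1233, JM1564, RM0014, JM1126 and JM1133 had 11.3, 27.3, 9.06, 27.6 and 59.1 CPM. The MaP-/- tumors JM836-T1, JM663-T1, JM663-T2, JM833-T1, JM833-T2 and JM779-T1 had 11.4, 11.7, 9.30, 15.2, 20.8 and 12.7 CPM. Thus 9 of the 12 missense tumors lay above every null tumor, whereas YZ11 and JM1233 lay within the null range and RM0014 just below it. These 3 tumors are labelled as missense. The calls among the 9 targets and the 33 further targets, and the correlations, were also computed without them; the Trp53 contrasts, the slopes and the other gene lists were not. Group means were 41.0 ± 13.4 (SD, n = 7), 26.8 ± 20.003 (SD, n = 5) and 13.5 ± 4.07 CPM (SD, n = 6).

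**Figure D1:**
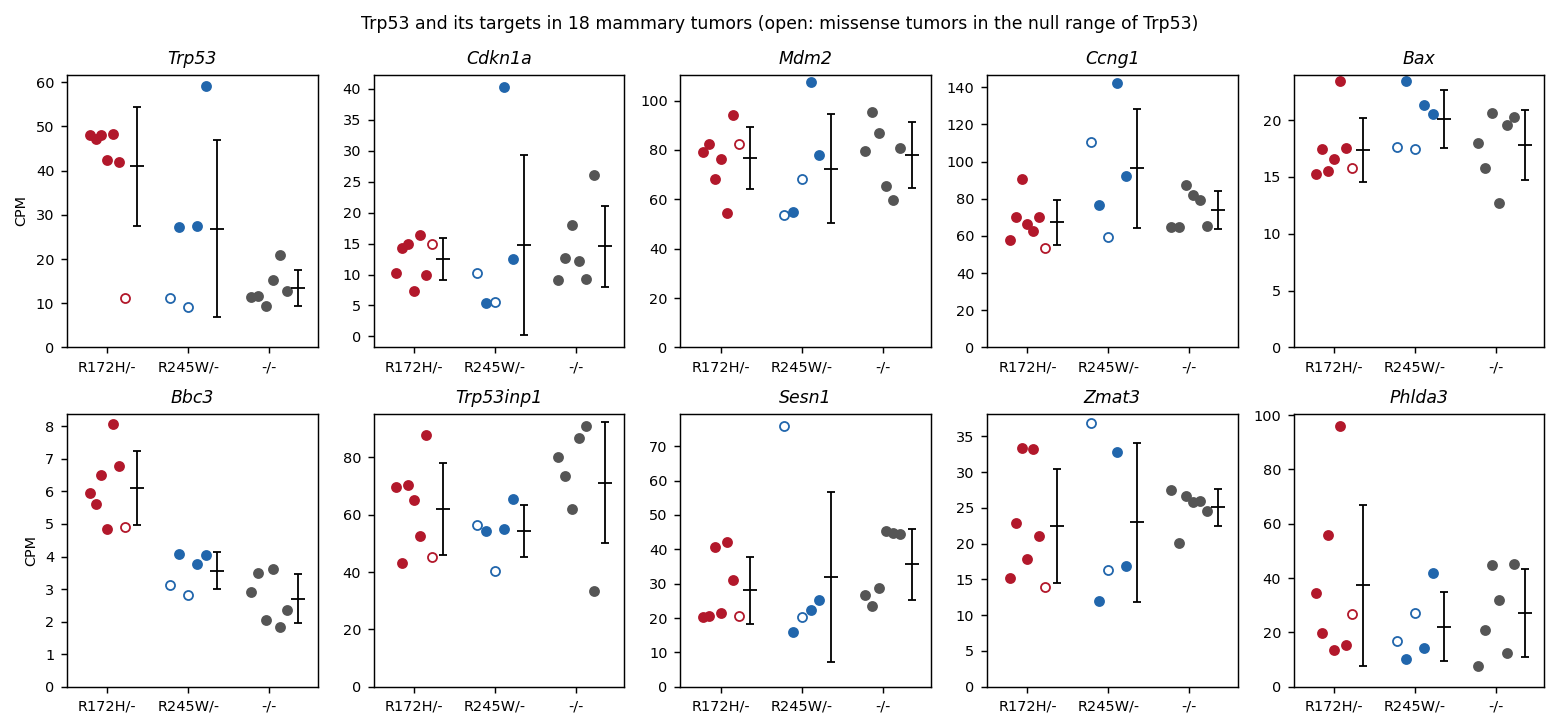
CPM (vertical axes, from 0 upwards) of Trp53 and 9 targets in each tumor, by genotype; points are tumors, open points the 3 missense tumors whose Trp53 is not above the null range, and bars the group mean with SD. Of these genes only Bbc3 separates the MaPR172H/- tumors (4.85 to 8.07 CPM) from all other tumors (1.82 to 4.08 CPM). The share of all genes that do so is not given here.

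Trp53 was 1.58 higher in MaPR172H/- than in MaP-/- tumors on the log2 scale (SE 0.31, FDR 0.00794, edgeR quasi-likelihood test over all genes), a 3.0-fold difference, with 6 of 7 tumors above the null range. Against the same null tumors the difference in MaPR245W/- tumors was 0.95 (SE 0.44, FDR 0.426), which did not pass the test, and 3 of its 5 tumors lay above the null range. Both contrasts share the null tumors. Between the missense groups, Trp53 differed by 0.60 (SE 0.42, FDR 0.384), less than the spread between tumors. Wrap53, which overlaps the 5′ end of Trp53 on the opposite strand, was at 16.4 ± 2.28 CPM (SD, n = 7), 17.3 ± 5.62 (SD, n = 5) and 15.4 ± 2.76 (SD, n = 6) in the 3 groups and differed in no comparison (edgeR FDR 0.83 for MaPR172H/- against null). Within groups its level did vary with that of Trp53. With group in the fit, its slope on the log2 CPM of Trp53 was 0.24 (SE 0.10, edgeR unadjusted p 0.0272, FDR 0.996). Over single tumors with group means subtracted, its r with Trp53 was 0.58. The part of the overlap in these values was not tested.

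Of the 10 genes, 2 passed the test between MaPR172H/- and MaP-/- tumors, Trp53 and Bbc3, both higher in the missense tumors. Over all 20954 genes tested in that comparison 8.4% passed. The median log2 difference of the 10 genes was -0.10, beside 0.00 for all genes. No member passed between MaPR245W/- and MaP-/- tumors, where 0% of 21452 genes passed with edgeR, 2527 had an unadjusted p under 0.05 and the DESeq2 Wald test called 424 (1.71% of 24838), none of them a member. With the mean of both missense groups set against null, 0 of the 10 passed by edgeR, against 1.49% of 22481 genes. In that contrast Trp53 (1.26, SE 0.37, FDR 0.0945) and Bbc3 (0.76, SE 0.20, FDR 0.0696) had unadjusted p under 0.05, and the DESeq2 Wald test called both, beside 5.14% of the 27392 genes it tested. Between MaPR172H/- and MaPR245W/- tumors 1 member, Bbc3, passed, against 9.4% of 22481 genes.

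**Figure D2:**
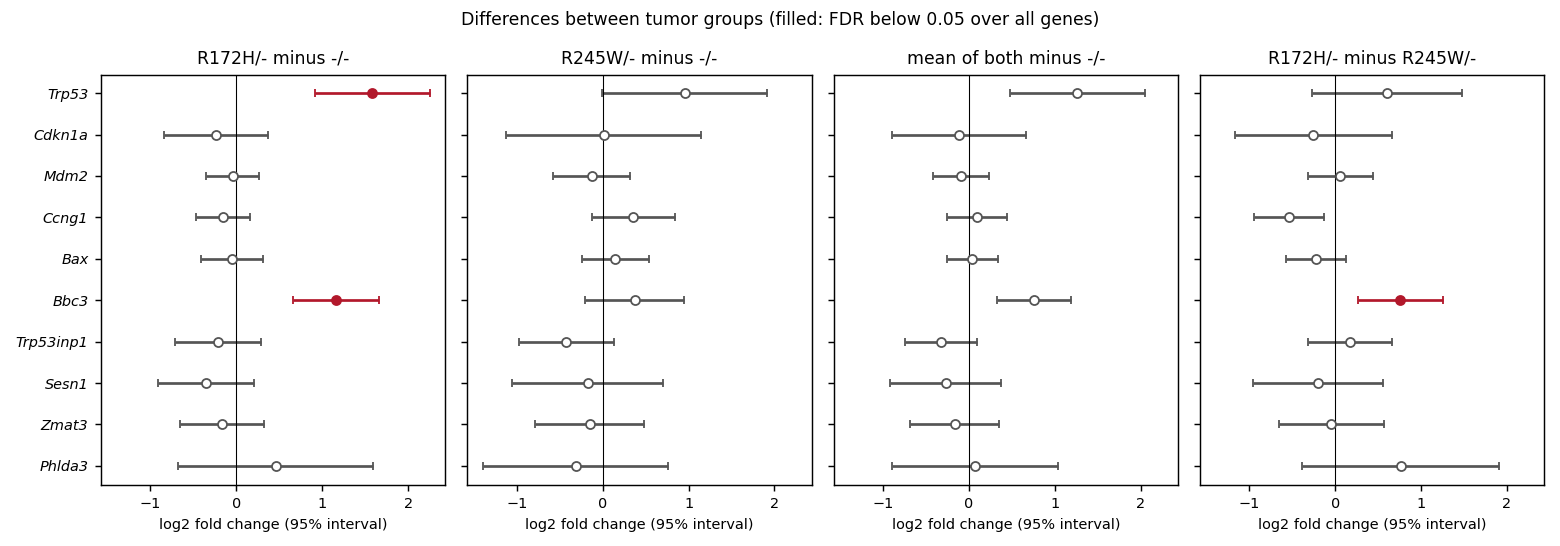
Log2 fold change (horizontal axis) of the 10 genes in 4 comparisons, with 95% intervals from the quasi-likelihood fit; filled red points have an FDR below 0.05 over all genes tested. Trp53 (1.58) and Bbc3 (1.16) are filled in MaPR172H/- against MaP-/-, and Bbc3 alone (0.76) in MaPR172H/- against MaPR245W/-.

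Bbc3 encodes Puma, a BH3-only protein that triggers mitochondrial apoptosis. Its level was 5.95, 5.601, 6.51, 4.85, 8.07, 6.79 and 4.91 CPM in the MaPR172H/- tumors, in the order given above. It was 3.12, 4.08, 2.83, 3.76 and 4.05 CPM in MaPR245W/- tumors and 2.90, 3.50, 2.05, 3.61, 1.82 and 2.35 CPM in MaP-/- tumors. All 7 MaPR172H/- tumors lay above all 11 others, YZ11 with its low Trp53 included, while the other groups overlapped. How many of all genes separate the tumors in this way is not given here. These Bbc3 values rest on 56 to 195 counts a tumor. The difference from null was 1.16 (SE 0.24, FDR 0.00927) for MaPR172H/- and 0.37 (SE 0.26, FDR 0.587) for MaPR245W/- tumors, and between the missense groups 0.76 (SE 0.23, FDR 0.0491, edgeR).

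The pair of calls in MaPR172H/- against null held with each of the 13 tumors left out. With the leukocyte marker score as a covariate no member passed (Trp53 1.79, FDR 0.171, and Bbc3 0.57, FDR 0.553) and calls over all genes fell from 1760 to 59. That score, a mean log2 CPM, had no overlap between the groups (up to 6.09 in MaPR172H/-, from 6.18 in MaP-/- tumors). The fit with it therefore cannot tell leukocyte content from genotype. The call of Bbc3 between the missense groups was lost in 15 of 18 fits that left out 1 tumor, and without the 3 missense tumors low in Trp53 its difference was 0.66 (FDR 0.205). Between the groups read on 1 instrument, MaPR245W/- and MaP-/-, Bbc3 did not pass in any setting run.

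Among the other inducers of apoptosis, Bax encodes a protein that permeabilizes the mitochondrial outer membrane. It was at 17.4 ± 2.81 CPM (SD, n = 7) in MaPR172H/-, 20.1 ± 2.56 (SD, n = 5) in MaPR245W/- and 17.8 ± 3.07 (SD, n = 6) in MaP-/- tumors, and YZ7 (23.4 CPM) stood above the other MaPR172H/- tumors (15.3 to 17.6 CPM). Trp53inp1, which promotes p53 activity and autophagy, ranged from 43.1 to 87.9 CPM in MaPR172H/-, from 40.2 to 65.6 in MaPR245W/- and from 33.3 to 90.9 in MaP-/- tumors, with the lowest null value in JM779-T1. The ranges of both genes overlapped in every comparison. For missense against null the log2 difference was 0.04 for Bax (95% interval -0.26 to 0.34) and -0.33 for Trp53inp1 (-0.74 to 0.09). Phlda3, an inhibitor of Akt signaling, had the widest range of the 10 genes over all tumors on the log2 scale. It was at 13.6 to 96.0 CPM in MaPR172H/-, 10.4 to 42.0 in MaPR245W/- and 7.50 to 45.4 CPM in MaP-/- tumors. Its missense against null difference was 0.07 with a 95% interval of -0.90 to 1.04, the widest of the 10 genes in that comparison.

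Of the genes tied to growth arrest and to control of p53 itself, Cdkn1a encodes p21, an inhibitor of cyclin-dependent kinases. Its level was 10.2, 14.2, 15.0, 7.27, 16.4, 9.88 and 14.9 CPM in MaPR172H/-, 10.2, 5.42, 5.57, 40.3 and 12.5 CPM in MaPR245W/-, and 9.12, 12.6, 17.95, 12.2, 9.30 and 26.1 CPM in MaP-/- tumors, in the same order of tumors. The highest values belonged to JM1126 and JM779-T1. JM1126 also had the highest summed level of 4 fibroblast markers (8906 CPM, against at most 3592 in any other tumor), of which Col1a1 gave 7472. Col1a1 and Lum were highest in JM1126, but Pdgfra was highest in JM779-T1 (984 against 529 CPM in JM1126) and Dcn in JM663-T2 (897 against 534). JM779-T1 had the lowest luminal marker level. The part of the cell makeup in these Cdkn1a values was not tested. Cdkn1a differed from null by -0.23 (95% interval -0.84 to 0.37) in MaPR172H/- and by 0.01 (-1.13 to 1.15) in MaPR245W/- tumors. Mdm2 was at 76.7 ± 12.6 CPM (SD, n = 7), 72.5 ± 22.1 (SD, n = 5) and 78.0 ± 13.3 CPM (SD, n = 6), and the missense against null interval ran from -0.42 to 0.23.

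Ccng1 encodes cyclin G1, which recruits a phosphatase to Mdm2. It was at 67.3 ± 11.98 CPM (SD, n = 7) in MaPR172H/-, 96.3 ± 32.0 (SD, n = 5) in MaPR245W/- and 73.9 ± 10.1 CPM (SD, n = 6) in MaP-/- tumors. JM1126 (142 CPM) and JM1233 (111 CPM) were the highest. Between the missense groups the difference was -0.54 (95% interval -0.94 to -0.14), with an edgeR FDR of 0.0852 that did not pass, although Ccng1 passed when RM0014 was left out. The gene overlaps Nudcd2 on the opposite strand, and Bax overlaps Gm45808 and Sesn1 overlaps Gm66135 on the same strand, so reads in those stretches cannot be told apart here.

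Sesn1 encodes a sestrin that restrains mTORC1 signaling, and Zmat3 an RNA-binding regulator of splicing. Sesn1 ranged from 20.2 to 42.0 CPM in MaPR172H/- and from 23.5 to 45.3 CPM in MaP-/- tumors. In MaPR245W/- tumors it was at 15.8 to 25.4 CPM in 4 tumors and at 75.99 CPM in JM1233, the tumor with the highest skeletal muscle marker level. JM1233 also had the highest summed level of 4 macrophage markers (Adgre1, Cd68, Csf1r, Mrc1; 2567 CPM), although Cd68 was highest in JM779-T1. JM1133, at 154 CPM of the muscle markers, had 25.4 CPM of Sesn1. The part of the cell makeup in these Sesn1 values was not tested. Zmat3 was 13.9 to 33.3 CPM in MaPR172H/-, 11.99 to 36.9 in MaPR245W/- and 20.2 to 27.5 CPM in MaP-/- tumors, the narrowest range in the null group. Missense against null differences were -0.27 (95% interval -0.92 to 0.37) for Sesn1 and -0.17 (-0.69 to 0.35) for Zmat3. The summed level of the 10 genes was 371 ± 56.9 CPM (SD, n = 7), 366 ± 86.8 (SD, n = 5) and 359 ± 22.7 CPM (SD, n = 6) in the MaPR172H/-, MaPR245W/- and MaP-/- groups.

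Per kilobase of merged exon length, averaged over the 18 tumors, the order of levels was Ccng1 (17.6 ± 4.95 CPM per kb, SD, n = 18), Phlda3 (11.5 ± 8.36), Mdm2 (9.85 ± 1.96), Bax (9.85 ± 1.57), Trp53inp1 (8.57 ± 2.30), Sesn1 (6.28 ± 2.95), Trp53 (3.78 ± 2.37), Cdkn1a (2.29 ± 1.36), Zmat3 (2.05 ± 0.648) and Bbc3 (0.890 ± 0.367). The steps between neighbors in this order were within the larger SD of each pair, except that from Zmat3 to Bbc3. The target that separated the MaPR172H/- tumors was thus the one with the lowest level per length.

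Whether targets followed Trp53 from tumor to tumor was examined next. With group in the fit, the slope of a target on the log2 CPM of Trp53 was above 0 for 8 of 9 targets, with a median of 0.12 beside 0.02 for all genes. For the 33 further p53 targets read below, the slope was above 0 for 15 and below 0 for 18, with a median of -0.03. None of the 9 passed by edgeR, and none had an unadjusted p under 0.05; over 22480 genes 0% passed and 823 had an unadjusted p under 0.05. The steepest was Trp53inp1 (0.24 log2 CPM per log2 CPM of Trp53, 95% interval -0.03 to 0.50, FDR 0.996). The slope of Bbc3 was 0.18 (interval -0.10 to 0.45, FDR 0.996) and that of Mdm2 0.00 (interval -0.21 to 0.22, FDR 1).

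Correlations were computed over 16 mice, with tumors of 1 mouse averaged and group means subtracted, and over the 7 MaPR172H/- tumors, 18 in all. Over the mice, Pearson r was above 0 for 8 of 9 targets, from -0.03 (Sesn1) to 0.63 (Bbc3). Bbc3 was the only target with a 2-sided permutation p under 0.05 (r = 0.63, p = 0.0293; Spearman rho = 0.58, p = 0.0349, 100000 permutations within groups), and its r was 0.40 without the 2 mice farthest from the median of Trp53. Its p passed 0.05 no longer when JM1233, RM0014 or JM833-T1 was left out, and across all genes its slope had the FDR of 0.996 given above. Over the 13 mice without the 3 missense tumors low in Trp53, r of Bbc3 was 0.055 (permutation p = 0.749) and rho -0.016 (p = 0.959), so the correlation rests on those tumors. Over all tumors taken singly, with group means subtracted, r was 0.39 for Bbc3 and 0.42 for Trp53inp1. The permutation p-values were not adjusted for the 18 correlations. No target had a Pearson p under 0.05 over the 13 mice (4 of 9 above 0), and Phlda3 had r = 0.47 (permutation p = 0.153) and rho = 0.59 (p = 0.0394). Trp53inp1 had r = 0.40 (permutation p = 0.0624) and rho = 0.35 (p = 0.194), and r = 0.15 without the 2 farthest mice.

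The MaPR172H/- tumors fell into 6 with 41.9 to 48.3 CPM of Trp53 and YZ11 with 11.2 CPM, so an r over all 7 rests on YZ11. Over the 7, no target had a Pearson p under 0.05 (exact permutation of all orders, lowest p = 0.139, Zmat3), and Mdm2 had rho = -0.79 (exact p = 0.048). Within the 6, r was 0.80 for Phlda3 (exact permutation p = 0.0722) and rho = 0.89 (p = 0.0333), and 0.78 for Cdkn1a (exact p = 0.0569) and rho = 0.77 (p = 0.103); r of Cdkn1a was 0.05 and that of Phlda3 0.90 without the 2 tumors farthest from the median. Across all genes none of the 9 slopes passed, over all tumors or in the MaPR172H/- tumors alone. The 6 tumors, like the 13 mice, were set apart after the values had been seen and are not among the 18 correlations. Without centring, over all 16 mice, Bbc3 had r = 0.78 and over the 9 mice read on the NovaSeq r = 0.78, given as descriptions because groups and instruments differ in level; the other 8 targets lay between -0.17 and 0.28 over the 16.

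**Figure D3:**
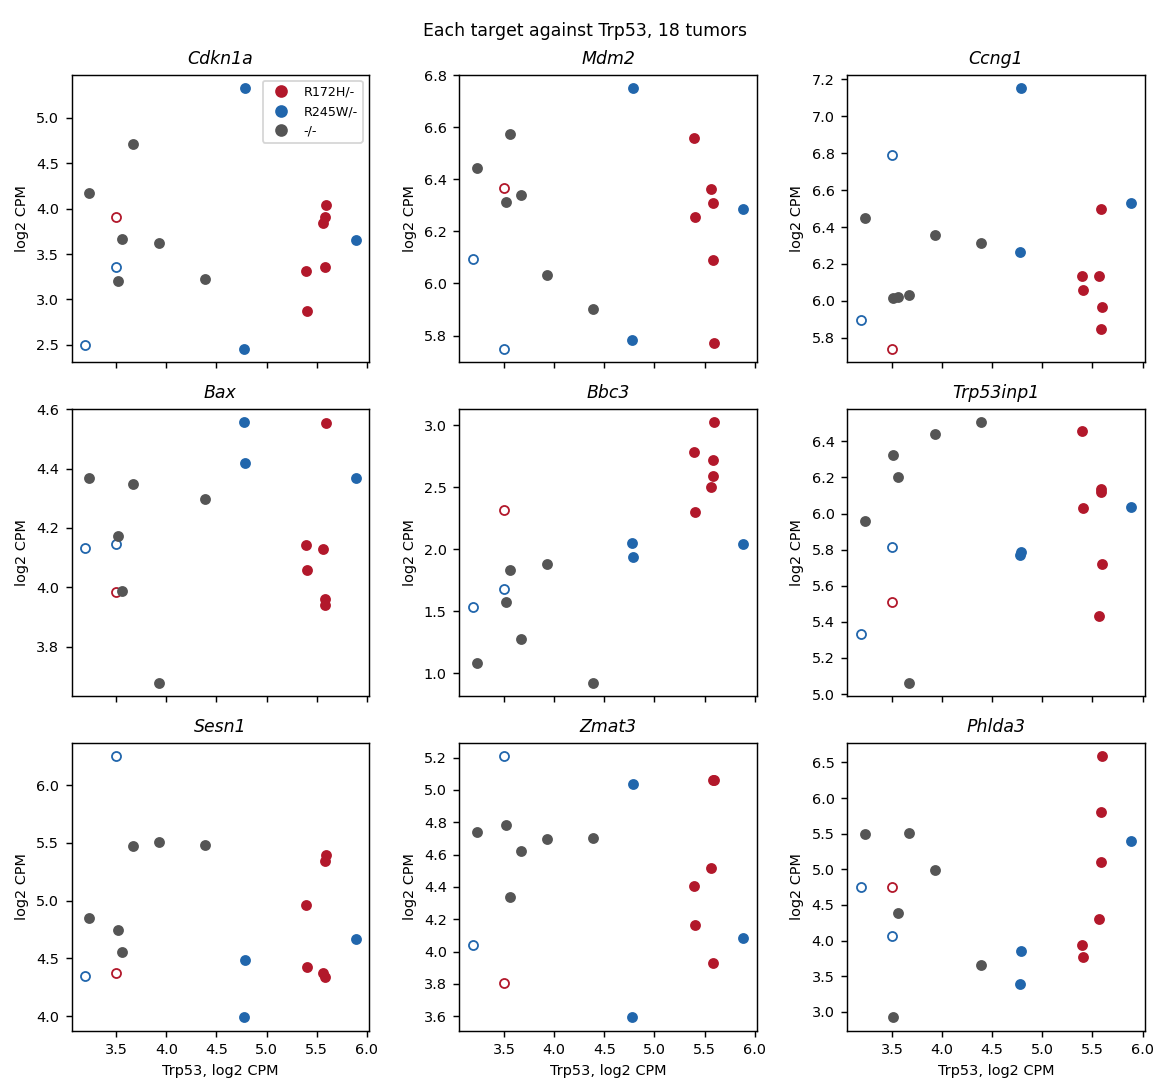
Log2 CPM of each of 9 targets (vertical axes) against log2 CPM of Trp53 (horizontal axis) in 18 tumors; colors give the genotype and open points the 3 missense tumors low in Trp53. Bbc3 is the target with the highest r over 16 mice (0.63 with group means subtracted), which was 0.055 without the open points.

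The 5 genes whose log2 CPM was most like that of Trp53 over the 18 tumors, among 22480 tested, were Trim41 (r = 0.88, a ubiquitin ligase gene), Akr7a5 (0.85), Ahdc1 (0.84), Med25 (0.84, a Mediator subunit) and Tbc1d9b (0.84). With group means subtracted Trim41 kept r = 0.84. Trim41 (chr11:48697231-48708227) and Tbc1d9b (chr11:50021744-50064860) lie on chromosome 11, as does Trp53 (chr11:69469669-69482701), but neither is a close neighbor of it. Bbc3 ranked 42 of 22480 (r = 0.72), the highest of the 9 targets before group means were subtracted; with them subtracted its r was 0.39 and that of Trp53inp1 0.42. Ppm1d, which encodes a phosphatase that acts on p53 and is itself a p53 target on chromosome 11, ranked 91 (r = 0.69). It was the highest of the 33 further p53 targets read below. Others of that list lay at the opposite end, with Fas at rank 22095 (r = -0.57) and Btg2 at rank 21351 (r = -0.48).

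Because 2 of these genes lie on chromosome 11, likeness to Trp53 was set out by position; this was chosen after the values had been seen and is a description only. The 83 protein-coding genes within 1 Mb of the Trp53 start had a median r of 0.31 with group means subtracted, and 70 of the 83 were above 0. The median was 0.12 for 76 genes at 1 to 5 Mb, 0.07 for 165 at 5 to 10 Mb, 0.10 for 229 at 10 to 20 Mb, 0.00 for 722 farther away on chromosome 11 and -0.01 for 13921 genes of other chromosomes. Chromosome 11 held 20 of the 100 protein-coding genes with the highest r without centring, and 8.39% of all; chromosomes 7 and 9 held 27 and 21.

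The level of the genes within 1 Mb was also read per tumor. Their median deviation from the 18-tumor median of each gene was -0.19 (log2) in YZ11, -0.47 in JM1233 and -0.27 in RM0014, the 3 missense tumors with low Trp53. In the other 9 missense tumors it ran from -0.02 (YZ6) to 0.40 (YZ3), and in the null tumors from -0.36 (JM663-T2) to 0.01 (JM836-T1). The low missense tumors thus lay below all other missense tumors for the neighbors of Trp53 as well. Over the 13921 genes of other chromosomes the median lay between -0.06 and 0.06 in every tumor. Normalization and the subtraction of gene medians hold a median over so many genes near 0, so it is no measure for a short stretch. Stretches of similar size elsewhere were not read, and whether the drop is particular to this one was not tested. DNA copy number was not measured in the files used here.

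**Figure D4:**
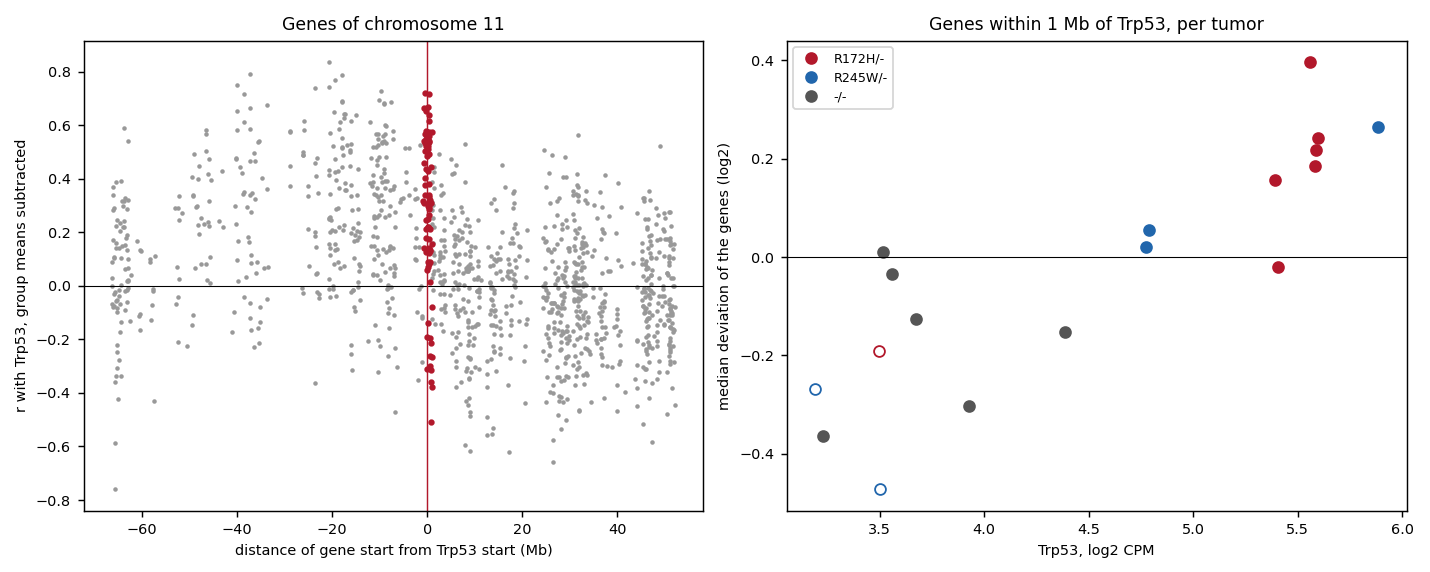
Left, Pearson r with Trp53 after subtraction of group means (vertical axis) of chromosome 11 genes by distance of their start from that of Trp53 in Mb (horizontal axis), with those within 1 Mb in red. Right, median log2 deviation of the 83 genes within 1 Mb against log2 CPM of Trp53, 1 point per tumor; the open points (3 missense tumors low in Trp53) lie at -0.47 to -0.19.

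Beyond the 10 genes, 33 further genes known as p53 targets were read from the same fits. Between MaPR172H/- and MaP-/- tumors 5 passed (against 8.4% of all genes), Xpc higher and Apaf1, Btg2, Eda2r and Fas lower in the missense tumors. The list's median difference was 0.22, beside 0.00 for all genes, so its median and the majority of its calls had opposite signs. Xpc, a DNA damage sensor of nucleotide excision repair, was at 41.8 to 71.8 CPM in MaPR172H/- and 19.8 to 37.0 CPM in MaP-/- tumors, without overlap (0.82, SE 0.18, FDR 0.0146). The death receptor gene Fas was at 3.66 to 7.22 against 7.54 to 29.6 CPM (-1.31, SE 0.33, FDR 0.0251) and Eda2r, another receptor of the TNF family, at 0.654 to 3.41 against 3.49 to 23.7 CPM (-2.29, SE 0.52, FDR 0.0159), neither with overlap. Apaf1, the scaffold of the apoptosome (-0.77, SE 0.20, FDR 0.0284), and Btg2, an antiproliferative gene (-1.05, SE 0.27, FDR 0.0323, edgeR), overlapped between the groups. The share of all genes without overlap between these groups is not given here.

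Of 4 markers each of leukocytes, macrophages and fibroblasts, 2 per list were lower and none higher in MaPR172H/- than in MaP-/- tumors (edgeR, FDR below 0.05). Over all 20954 genes tested, 992 were lower and 768 higher. Among the fibroblast markers, Col1a1 had the higher mean in MaPR172H/- tumors (1186 against 748 CPM) and did not pass. None of the markers was at 0 in any tumor. With the leukocyte score as a covariate none of the 33 passed. As that score had no overlap between the groups, this fit cannot tell leukocyte content from genotype. The part of these cell types in the differences was not tested further. Without JM663-T2, 2 of the 33 passed (Eda2r and Xpc), and without YZ6, 3 did. Between MaPR172H/- and MaPR245W/- tumors 5 of 33 passed by edgeR (against 9.4% of all genes), Xpc higher and Apaf1, Btg2, Eda2r and Rps27l lower, and without JM1233 only Rps27l did. None of the 33 passed by edgeR between MaPR245W/- and null, where 2 had an unadjusted p under 0.05, or for missense against null, where 5 had; the DESeq2 Wald test called 0 in both.

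**Figure D5:**
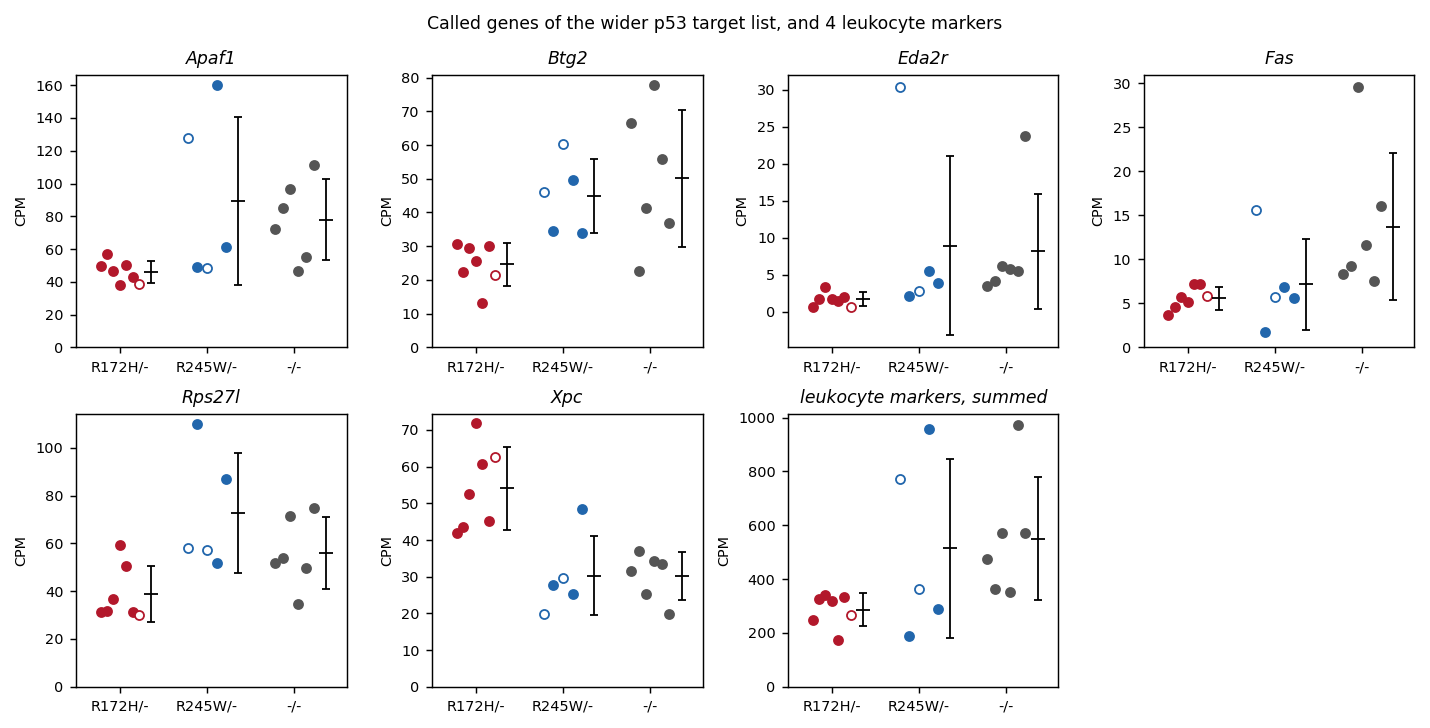
CPM (vertical axes) in each tumor of the 6 further p53 targets that passed in a comparison with MaPR172H/- tumors, and of 4 leukocyte markers summed; points are tumors, bars the group mean with SD, and open points the 3 missense tumors low in Trp53. Xpc lies at 41.8 to 71.8 CPM in MaPR172H/- tumors and Fas at 3.66 to 7.22.

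Among 21 regulators of p53, 2 passed between MaPR172H/- and MaP-/- tumors (edgeR), a share near the 8.4% of all genes, with Sirt1 lower (22.9 ± 4.52 CPM, SD, n = 7, against 36.1 ± 4.79, SD, n = 6; -0.68, SE 0.15, FDR 0.0141) and Ppp1r13l higher (13.8 ± 5.10 against 6.04 ± 1.88 CPM; 1.18, SE 0.29, FDR 0.0243). Sirt1 encodes a deacetylase that removes acetyl groups from p53, and Ppp1r13l encodes iASPP, an inhibitor of p53. Between the missense groups 3 of the 21 passed, where 9.4% of all genes did, with the acetyltransferase genes Ep300 (0.48, SE 0.13, FDR 0.0271) and Crebbp (0.57, SE 0.17, FDR 0.0433) higher and the ubiquitin ligase gene Rchy1 (-0.64, SE 0.18, FDR 0.0336) lower in MaPR172H/- tumors. None passed against null in MaPR245W/- tumors, where 4 had an unadjusted p under 0.05, or over both missense groups, where 4 had.

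Of 14 cell cycle genes that p53 lowers through p21, none passed against null in MaPR172H/- (2 with unadjusted p under 0.05), in MaPR245W/- (0) or over both missense groups (0, edgeR; these lists were not counted with DESeq2). Between the missense groups 1 of the 14 passed, no larger a share than the 9.4% of all genes. This was Ccnb1, which encodes cyclin B1 and was lower in MaPR172H/- tumors (36.2 ± 8.04 CPM, SD, n = 7, against 80.3 ± 23.6, SD, n = 5; -1.17, SE 0.29, FDR 0.0167). Of the other p53 family genes, Trp73 was too low to test, and Trp63, also a basal epithelial marker, ranged from 1.12 to 181 CPM in MaPR172H/- tumors and passed in no comparison (2.48, SE 1.12, FDR 0.188 against null).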

How the data were processed

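Bulk RNA from 18 mammary tumors was measured by stranded RNA sequencing, as mRNA libraries per the labels and as rRNA-depleted total RNA libraries per the study's methods. Per the labels and the study's methods, the authors checked reads with FastQC 0.11.9, aligned them with STAR 2.7.10b to GRCm39 and estimated gene counts with RSEM 1.3.3 and GENCODE annotation. The deposited values are counts per gene, used as they stand; the strand setting of the counting is not given in the sources used here. Of 57126 identifiers, 56620 matched the annotation used here for symbols and coordinates.

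Groups came from the genotype labels. CPM used TMM library sizes, and log2 CPM a prior count of 2. Each missense group was compared with null tumors in a fit of its own, and the mean of both with null, and both with each other, in a fit of all 18 tumors, with edgeR 4.0.16 (filterByExpr, quasi-likelihood F test, Benjamini-Hochberg adjustment over all genes tested). A gene was called, or passed, at FDR below 0.05. SE is the log2 difference divided by the root of F, and 95% intervals use the t quantile of the fit. Tumors of 1 mouse entered as separate samples, so p-values measure the spread between tumors; sums per mouse were an alternative, as were DESeq2 1.42.0, other filters, marker score covariates and each tumor left out. Correlations used permutation tests in Python (scipy 1.17.1). Tests were checked on simulated data. The named genes were all 10 members, called genes of the other lists, the 5 genes most like Trp53 and genes overlapping a member. Members and lists were chosen with earlier results of these data known. Sequences were read from GRCm39.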

Additional observations from a re-analysis of the deposited data

Results flagged for a closer look

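Among 30 sets of values (10 genes in 3 groups), 4 held a tumor far from the rest of its group by Dixon's test, where chance gives about 1 in 20. Trp53 was at 11.2 CPM in YZ11, beside 41.9 to 48.3 in the other MaPR172H/- tumors. Bax was at 23.4 CPM in YZ7, beside 15.3 to 17.6 in the other MaPR172H/- tumors. Cdkn1a was at 40.3 CPM in JM1126, beside 5.42 to 12.5 in the other MaPR245W/- tumors. Sesn1 was at 75.99 CPM in JM1233, beside 15.8 to 25.4 in the other MaPR245W/- tumors.

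The change of Bbc3 from null differed between MaPR172H/- and MaPR245W/- tumors by 0.76 on the log2 scale (edgeR, FDR 0.0491). All 7 MaPR172H/- tumors lay above every MaPR245W/- tumor, and the share of all genes that do so is not given here. The call was lost in 15 of 18 fits that left out 1 tumor. Instrument, tumor type and genotype cannot be told apart in this contrast.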

How the results depend on the processing

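No paired analysis was possible because the labels give no replicate numbers shared between groups. The 2 members called between MaPR172H/- and null tumors were called under each alternative run and with each tumor left out (2 to 2), except with the leukocyte score as a covariate (0, with no overlap of the score between these groups). No member was called between MaPR245W/- and null, or by slope, under any. For missense against null the DESeq2 Wald test called 2 (Trp53 1.2998, FDR 0.0145, and Bbc3 0.79, FDR 0.00113), beside 5.14% of all genes it tested. Between the missense groups the 1 call was lost (0) with no filter on low counts, with a fold change minimum, with the muscle score, with the leukocyte score and without the 3 missense tumors low in Trp53, and with 1 tumor left out the count was 0 to 1. Of the 33 further targets, calls between MaPR172H/- and null went from 5 to 3 with no filter, with the fold minimum and in the fit of all 18 tumors, to 1 with the muscle score, to 0 with the leukocyte score, and to 2 to 5 with 1 tumor left out. Calls between the missense groups went from 5 to 2 with no filter, to 1 with the fold minimum, the muscle score and the leukocyte score, to 0 without the low tumors, and to 1 to 5 with 1 tumor left out. For missense against null they were 0 to 2 (Eda2r and Fas without JM1233). Targets with a correlation p under 0.05 numbered 0 to 1 over MaPR172H/- tumors and 0 to 2 over mice with 1 tumor left out, and 0 over mice without the low tumors (Bbc3 r 0.055). The cause of these shifts was not tested.

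Differences that did not pass in the report turned their sign as follows, none of them passing. With the muscle score, MaPR172H/- against null gave Bax 0.0017, MaPR245W/- against null Cdkn1a -0.40 and Ccng1 -0.054, missense against null Ccng1 -0.12, and MaPR172H/- against MaPR245W/- Cdkn1a 0.10, Sesn1 0.69 and Zmat3 0.42. With the leukocyte score the values were Bax 0.041 and Phlda3 -0.57, Cdkn1a -0.20, Cdkn1a 0.10 and Phlda3 -0.26, and Cdkn1a 0.58, Sesn1 0.24 and Zmat3 0.42 for the same 4 comparisons in turn, and a slope of Sesn1 of 0.034. Cdkn1a in MaPR245W/- against null was -0.016 with at least 10 counts in every tumor and -0.049 with tumors summed by mouse. Without the low tumors, Mdm2 was 0.025 (MaPR245W/- against null) and -0.092 (between missense groups), Cdkn1a 0.060 (missense against null), Sesn1 0.47 and Zmat3 0.22 (between missense groups). Pearson r over mice without the low tumors was -0.040 (Cdkn1a), -0.26 (Mdm2), -0.038 (Ccng1), -0.26 (Bax), -0.021 (Zmat3) and 0.47 (Sesn1), each of the opposite sign to that over 16 mice. In MaPR172H/- tumors alone the slopes were -0.067 for Cdkn1a, -0.064 for Mdm2 and 0.31 for Sesn1.

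With 1 tumor left out, MaPR172H/- against null ranged from -0.34 to 0.021 for Cdkn1a, -0.12 to 0.016 for Mdm2 and -0.0026 to 0.67 for Phlda3; MaPR245W/- against null from -0.82 to 0.24 for Cdkn1a and -0.39 to 0.015 for Zmat3; missense against null from -0.040 to 0.083 for Bax, -0.52 to 0.12 for Cdkn1a and -0.17 to 0.27 for Phlda3. The ranges between the missense groups were -0.47 to 0.56 (Cdkn1a), -0.029 to 0.25 (Mdm2), -0.37 to 0.42 (Sesn1) and -0.21 to 0.20 (Zmat3). Slopes ranged from -0.064 to 0.38 (Cdkn1a), -0.050 to 0.037 (Mdm2), -0.092 to 0.35 (Phlda3), -0.22 to 0.25 (Sesn1) and -0.12 to 0.23 (Zmat3). Pearson r over mice ranged from -0.023 to 0.31 (Cdkn1a), -0.093 to 0.17 (Mdm2), -0.058 to 0.25 (Phlda3), -0.19 to 0.38 (Sesn1) and -0.17 to 0.33 (Zmat3), and over MaPR172H/- tumors from -0.36 to 0.78 (Cdkn1a) and -0.52 to 0.66 (Trp53inp1). The other log2 differences, slopes and r kept their sign with 1 tumor left out. At 56 counts in its lowest library, Bbc3 is the member whose values carry the most counting error.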
